A study of Rattus norvegicus with 12 samples.

Results

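The genes described here are 8 genes of MHC class II antigen presentation, picked as named genes of the pathway, with no measured value in the rule: the class II chains RT1-Da, RT1-Db1, RT1-Ba and RT1-Bb, the invariant chain Cd74, the peptide exchange chaperone RT1-DMa and RT1-DMb, and the transcriptional coactivator Ciita. Earlier results of these data were known when these genes were chosen. They are 8 of the 30045 gene rows in the deposited count table, and all 8 were among the 17330 rows tested. RNA-seq libraries of messenger RNA were made from cultured theca-interstitial cells, which surround the ovarian follicle and produce androgens. The donors were wild-type females of the outbred Sprague Dawley strain, 30 days after birth. In McCoy's 5A medium on human fibronectin, the cells received for 48 h lipopolysaccharide (LPS), a component of the bacterial outer membrane labelled at 1 µg/ml, rat interleukin-1β (IL-1β), an inflammatory cytokine whose dose is not clear from the labels, or vehicle as control. Each group held 4 libraries, all from rats of the same strain, sex, genotype and age. Whether the 4 are separate isolations is not labelled, so p-values reflect the spread between these libraries, which may be technical.

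Class II molecules are pairs of an alpha and a beta chain that carry peptides from the endosome to the cell surface, where CD4+ T cells read them. The invariant chain escorts new chain pairs and blocks their groove, the DM heterodimer removes its last fragment and edits the bound peptides, and Ciita is recruited to promoters that bind the factors RFX, CREB and NF-Y. Macrophages, dendritic cells and B cells are the usual makers of class II, and many other cells make it when interferon-γ induces Ciita.

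The promoter stretches of the members are shown because a shared promoter module, an X box followed by a Y box, is the known hallmark of class II genes. A RefSeq promoter of the GRCr8 assembly, from 250 bases before to 50 after the gene start, was matched for 6 of the 8 members, and RT1-DMb and Ciita had no entry. The stretches run 5′ to 3′ on the strand of the gene, with the letters GCAAC (part of the X box) and GATTGG (the Y box) in capitals.
RT1-Da: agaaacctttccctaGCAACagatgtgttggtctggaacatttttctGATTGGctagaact
RT1-Db1: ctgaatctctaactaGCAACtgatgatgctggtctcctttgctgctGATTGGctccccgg
RT1-Ba: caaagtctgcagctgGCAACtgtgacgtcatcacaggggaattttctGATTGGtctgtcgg
RT1-Bb: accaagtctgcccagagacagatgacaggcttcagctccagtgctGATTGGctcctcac
RT1-DMa: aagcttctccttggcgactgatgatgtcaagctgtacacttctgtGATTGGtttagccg
Cd74: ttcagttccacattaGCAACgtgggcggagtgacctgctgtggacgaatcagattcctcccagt

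In GRCr8 these stretches lie at chr20:4515318-4515378 (plus strand) for RT1-Da, chr20:4560230-4560289 (minus strand) for RT1-Db1 and chr20:4576966-4577026 (plus strand) for RT1-Ba. They lie at chr20:4604167-4604225 (minus strand) for RT1-Bb, chr20:4712387-4712445 (minus strand) for RT1-DMa and chr18:56527121-56527184 (plus strand) for Cd74. The 6 RT1 members stand on chromosome 20, Cd74 on chromosome 18 and Ciita on chromosome 10. Along chromosome 20 the RT1 members come in the order RT1-Da, RT1-Db1, RT1-Ba, RT1-Bb, RT1-DMb, RT1-DMa, with the antigen transporter genes Tap2 and Tap1 and the immunoproteasome genes Psmb8 and Psmb9 between RT1-Bb and RT1-DMb.

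The pair GCAAC then GATTGG on the gene's strand, with 20 to 30 bases between, stood in 3 of the 6 member promoters. RT1-Da and RT1-Ba had 27 bases between the letters and RT1-Db1 had 26. The same ordered pair stood in 63 of all 33469 RefSeq promoters of that length, on either strand, which is 0.188%. Those 63 include the class II promoters named here. The letters and their spacing were chosen after these sequences were seen, so the contrast is a description and no independent support. GATTGG alone stood in 5 of the 6 member promoters and in 14.8% of all promoters, and GCAAC alone in 4 of the 6 and in 35.1% of all. Both strands were searched, the matches did not overlap, and RT1-Db1 held GATTGG once more on the opposite strand. RT1-Bb and RT1-DMa held GATTGG without these letters of the X box, and Cd74 held GCAAC without GATTGG. Of other class II chains, RT1-DOa, RT1-DOb, RT1-Db2 and RT1-Ha all held the pair, with 27, 24, 25 and 27 bases between. Absence of a match says only that these letters are not in that window.

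**Figure D1:**
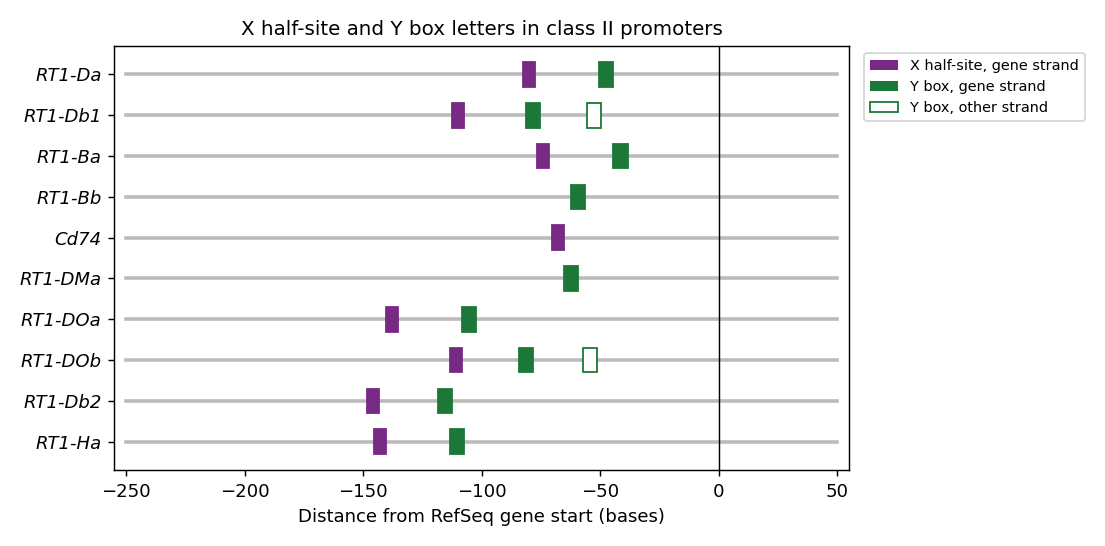
Positions of the letters GCAAC (X half-site) and GATTGG (Y box) in RefSeq promoters of 6 members and 4 other class II chains, in bases from the gene start (0), with filled boxes on the strand of the gene and open boxes on the other strand. The pair with 24 to 27 bases between stands in 3 of the 6 member promoters and in 4 of the 4 other chains.

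Library totals were 25643226 to 28698783 counts with LPS, 23193408 to 26836323 with IL-1β and 20873934 to 32090924 in control. The 8 members together took 181 to 255 counts per library with LPS, 261 to 296 with IL-1β and 262 to 486 in control. A single member had 3 to 162 counts in a library, and 56 of the 96 member values were below 30. All 8 passed the filter on low counts, which asked for 0.377 CPM in 4 libraries: Cd74, RT1-Da and RT1-DMa did so in all 12, RT1-DMb in 11, RT1-Bb and RT1-Db1 in 9, and RT1-Ba and Ciita in 5. RT1-Ba reached that level in 1 LPS, 1 IL-1β and 3 control libraries, so it passed only through control, where it was highest. RT1-Bb and RT1-Db1 each reached it in 2 LPS, 3 IL-1β and 4 control libraries. At that depth counting error is large: an exact 95% Poisson interval runs from 4.80 to 18.4 around 10 counts and from 0.619 to 8.77 around 3. On a principal component that separated LPS from IL-1β, LPS replicates 3 and 4 lay apart from LPS replicates 1 and 2, and members' calls and the counts of each list are given without them where they differ. The label was set against theca markers, in CPM (counts scaled to a common library total). All 8 passed the filter and summed to 744.6 to 809.9 CPM with LPS, 1014.5 to 1115.4 CPM with IL-1β and 505.5 to 537.2 CPM in control, a sum mostly of Gata4, Star, Nr5a1 and Hsd3b6, which other ovarian cells also make. The markers more particular to theca, named here after their values were seen, were low: Cyp17a1 averaged 3.39 CPM with LPS, 15.5 CPM with IL-1β and 0.537 CPM in control, and Insl3 0.436, 0.491 and 0.229 CPM in the same order. The 7 granulosa markers summed to 431.5 to 599.2 CPM with LPS, 638.8 to 832.2 CPM with IL-1β and 376.4 to 442.3 CPM in control. That sum was mostly Inha, which averaged 369 CPM with LPS, 536 CPM with IL-1β and 279.8 CPM in control. Levels of the other granulosa markers are not given here, and Inha does not speak for them. The theca and granulosa markers thus do not settle which ovarian cells the libraries held.

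With LPS, 7 of the 8 members fell and none rose relative to control, at an adjusted p under 0.05 in edgeR's quasi-likelihood test with Benjamini-Hochberg adjustment over all 17330 rows. Of all rows tested, 20.0% were called lower and 22.5% higher. The exception was Ciita. The chaperone chain RT1-DMb fell furthest in the fit, to a level 3.93-fold lower than control, and the other 6 fell 1.47-fold to 2.74-fold. With IL-1β, 3 of the 8 fell (Cd74, RT1-Ba and RT1-Db1) and none rose, against 23.0% of all rows called lower and 24.7% higher. RT1-Ba, counted as lower in both treatments, passed the filter only through its control libraries, so its calls are no independent support. Between the treatments, 2 of the 8 were lower with LPS than with IL-1β (RT1-DMa and RT1-DMb), against 10.6% of all rows called lower and 11.3% higher. Without LPS replicates 3 and 4, the counts called lower were 7 with LPS, 5 with IL-1β and 2 between the treatments, and none was higher. In that setting 17.6% of all rows were called lower with LPS and 23.6% with IL-1β. The 2 between the treatments were then RT1-DMb and RT1-Db1, with RT1-DMa lost, and 5.74% of the 17764 rows then tested were called lower in that comparison. The members' median log2 fold change was -1.01 for LPS over control, -0.49 for IL-1β over control and -0.47 for LPS over IL-1β, where the median of all rows was 0.01, 0.01 and -0.00. LPS and IL-1β were compared with the same 4 control libraries. In bulk RNA, fewer cells of a type that makes class II and less class II RNA per cell cannot be told apart.

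All 4 LPS libraries lay below all 4 control libraries for 6 members, namely Cd74, RT1-Bb, RT1-Da, RT1-Db1, RT1-DMa and RT1-DMb. Of all rows tested, 18.2% were separated in that way. IL-1β and control libraries were separated for Cd74 and RT1-Db1, both lower with IL-1β, against 21.4% of all rows. LPS and IL-1β libraries were separated for RT1-DMa and RT1-DMb, both lower with LPS, against 10.6% of all rows.

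**Figure D2:**
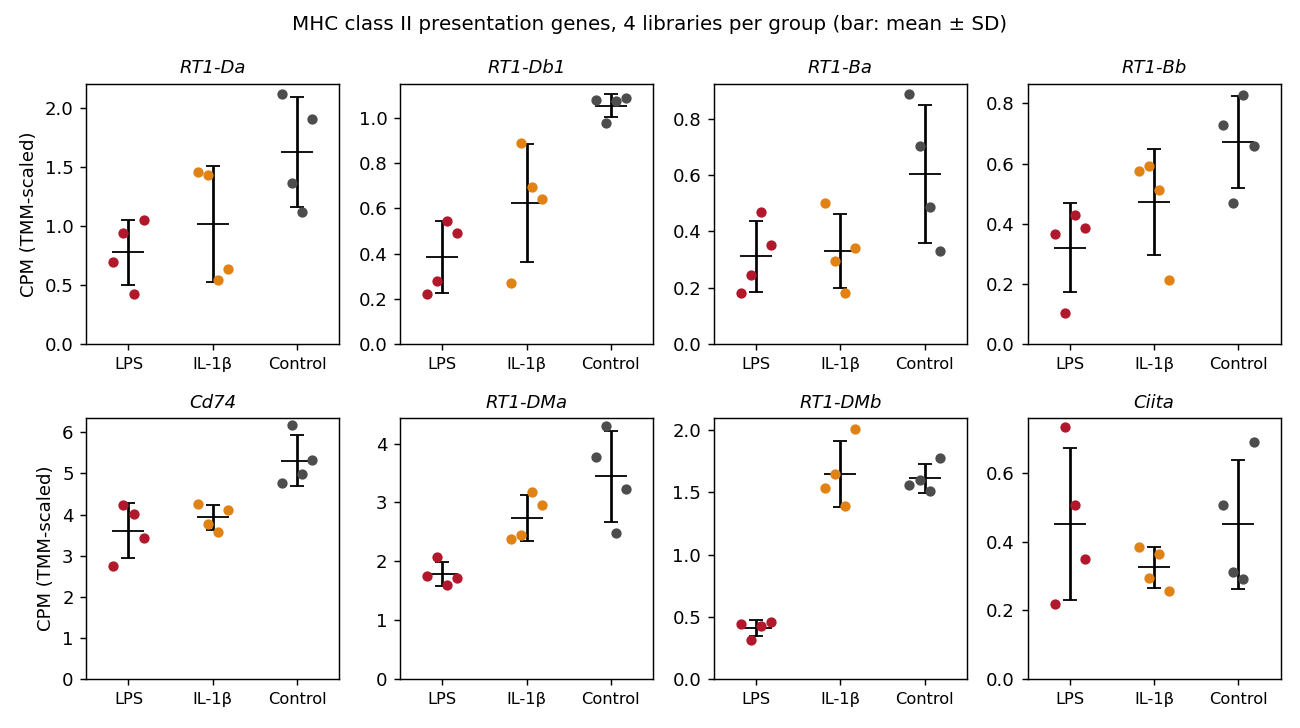
Level of each member in CPM (counts scaled to a common library total by TMM) in LPS, IL-1β and control libraries, with 1 point per library and bars for the mean ± SD of 4; each axis starts at 0 and has its own scale. RT1-DMb sits at 0.315 to 0.455 CPM in the LPS libraries, below every IL-1β and control library, while the Ciita points of the 3 groups overlap.

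The 4 chain genes encode the molecules that hold the peptide. RT1-Da and RT1-Db1 are the alpha and beta chains of the D molecule, the rat counterpart of human HLA-DR, and RT1-Ba and RT1-Bb those of the B molecule, the counterpart of HLA-DQ. RT1-Da had 0.695, 0.945, 0.429 and 1.05 CPM with LPS, 1.46, 1.44, 0.549 and 0.641 CPM with IL-1β, and 2.13, 1.37, 1.12 and 1.91 CPM in control. The LPS libraries all lay below the control libraries, and the IL-1β libraries fell into 2 that reached the control range and 2 that lay below it. RT1-Da averaged 0.780 ± 0.277 CPM with LPS and 1.63 ± 0.466 CPM in control (SD, n = 4 each), a log2 fold change of -1.08 ± 0.31 (SE, adjusted p = 0.00923). The IL-1β mean of 1.02 ± 0.494 CPM differed from that of control by -0.72 ± 0.30 on the log2 scale, which was not called (adjusted p = 0.0606, 95% interval -1.36 to -0.08).

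Alternatives divided on RT1-Da in IL-1β. It was called with limma-voom (-0.81, adjusted p = 0.0300), with no filter on low counts (-0.72, adjusted p = 0.00213) and with the replicate number as a block (-0.68, adjusted p = 0.0121). It was also called without Control replicate 3 (-0.84, adjusted p = 0.0328), without IL-1β replicate 1 (-0.95, adjusted p = 0.0216), without IL-1β replicate 2 (-0.92, adjusted p = 0.0291) and without LPS replicate 3 (-0.72, adjusted p = 0.0397). The same held without LPS replicates 3 and 4 (-0.72, adjusted p = 0.0445), which enter that value only through the shared estimate of spread.

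RT1-Db1 had 0.219, 0.280, 0.546 and 0.490 CPM with LPS, 0.269, 0.888, 0.695 and 0.641 CPM with IL-1β, and 1.08, 0.976, 1.07 and 1.09 CPM in control. The control libraries stood within a narrow band, and all 8 treated libraries lay below it. The means were 0.384 ± 0.158 CPM with LPS, 0.623 ± 0.259 CPM with IL-1β and 1.05 ± 0.0522 CPM in control (SD, n = 4 each). RT1-Db1 fell by 1.46 on the log2 scale with LPS (SE 0.29, adjusted p = 1.49e-04), the largest fall among the 4 chains. It fell by 0.77 with IL-1β (SE 0.27, adjusted p = 0.0192), a call that was lost without IL-1β replicate 1, the lowest of its group (-0.51, adjusted p = 0.106). LPS over IL-1β gave -0.69 ± 0.33 (adjusted p = 0.137, 95% interval -1.36 to -0.02), which passed without IL-1β replicate 1 (-0.95, adjusted p = 0.0285) and without LPS replicates 3 and 4 (-1.29, adjusted p = 0.0446).

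RT1-Ba rested on few reads, with 5, 7, 12 and 10 counts in the LPS libraries, 13, 7, 5 and 8 in the IL-1β libraries, and 28, 18, 10 and 10 in the control libraries. Both treated groups overlapped control, because control replicates 3 and 4 had as few counts as some treated libraries. RT1-Ba averaged 0.311 ± 0.125 CPM with LPS, 0.330 ± 0.131 CPM with IL-1β and 0.602 ± 0.245 CPM in control (SD, n = 4 each). The log2 fold change was -0.97 ± 0.35 for LPS over control (adjusted p = 0.0269) and -0.88 ± 0.35 for IL-1β over control (adjusted p = 0.0419).

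Both RT1-Ba calls were lost when single libraries were left out. The LPS call was lost without Control replicate 1 (-0.68, adjusted p = 0.170), Control replicate 2 (-0.90, adjusted p = 0.0689), LPS replicate 1 (-0.79, adjusted p = 0.0894) or LPS replicate 2 (-0.87, adjusted p = 0.0698), and with DESeq2 (-0.97, adjusted p = 0.0675). The IL-1β call was lost without Control replicate 1 (-0.59, adjusted p = 0.229), Control replicate 2 (-0.81, adjusted p = 0.0952), IL-1β replicate 2 (-0.84, adjusted p = 0.0862), IL-1β replicate 3 (-0.67, adjusted p = 0.15) or IL-1β replicate 4 (-0.90, adjusted p = 0.0655). It was lost as well with DESeq2 (-0.89, adjusted p = 0.0946), limma-voom (-0.83, adjusted p = 0.0643) and scaling by library size alone (-0.83, adjusted p = 0.0524). Both fold changes stayed below 0 in each of these settings.

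RT1-Bb had 10, 3, 11 and 11 counts with LPS, 15, 14, 14 and 5 with IL-1β, and 23, 12, 17 and 20 in control. In CPM the LPS libraries lay below the control libraries, with LPS replicate 2 far below the other LPS libraries. The means were 0.321 ± 0.146 CPM with LPS, 0.473 ± 0.177 CPM with IL-1β and 0.672 ± 0.153 CPM in control (SD, n = 4 each). RT1-Bb fell by 1.06 on the log2 scale with LPS (SE 0.33, adjusted p = 0.0117), a call that was lost without LPS replicate 2 (-0.76, adjusted p = 0.0575). For IL-1β over control the value was -0.48 ± 0.31 (adjusted p = 0.220, 95% interval -1.12 to 0.16).

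Cd74, the invariant chain, had 2.74, 4.23, 4.01 and 3.43 CPM with LPS, 4.26, 3.76, 3.58 and 4.10 CPM with IL-1β, and 4.76, 6.17, 4.98 and 5.33 CPM in control. All treated libraries lay below all control libraries, and the treated groups overlapped each other. The means were 3.61 ± 0.668 CPM with LPS, 3.93 ± 0.310 CPM with IL-1β and 5.31 ± 0.619 CPM in control (SD, n = 4 each). Cd74 fell by 0.56 on the log2 scale with LPS (SE 0.12, adjusted p = 4.27e-04) and by 0.43 with IL-1β (SE 0.12, adjusted p = 0.00413), and both calls held under every alternative run. LPS over IL-1β was -0.12 ± 0.13 (adjusted p = 0.557, 95% interval -0.39 to 0.14).

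RT1-DMa and RT1-DMb encode the alpha and beta chains of DM. RT1-DMa had 1.76, 2.06, 1.60 and 1.71 CPM with LPS, 2.38, 2.45, 3.18 and 2.95 CPM with IL-1β, and 3.78, 4.29, 2.49 and 3.23 CPM in control. The LPS libraries were lower than all others, while IL-1β and control libraries overlapped. RT1-DMa averaged 1.78 ± 0.199 CPM with LPS, 2.74 ± 0.388 CPM with IL-1β and 3.45 ± 0.773 CPM in control (SD, n = 4 each). It fell by 0.96 on the log2 scale relative to control with LPS (SE 0.16, adjusted p = 9.77e-06). It was lower with LPS than with IL-1β by -0.62 ± 0.16 (adjusted p = 0.00678), which was lost without LPS replicates 3 and 4 (-0.52, adjusted p = 0.0903).

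For RT1-DMa, IL-1β over control was -0.34 ± 0.15 and was not called (adjusted p = 0.0552, 95% interval -0.64 to -0.04). It passed without Control replicate 3, the lowest control library (-0.45, adjusted p = 0.0110), and without IL-1β replicate 3, the highest IL-1β library (-0.43, adjusted p = 0.0326). It passed also without LPS replicates 3 and 4 (-0.34, adjusted p = 0.0490).

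RT1-DMb had 0.439, 0.315, 0.429 and 0.455 CPM with LPS, 1.54, 1.65, 1.39 and 2.01 CPM with IL-1β, and 1.55, 1.60, 1.51 and 1.78 CPM in control. The LPS libraries formed a group far below the rest, and the IL-1β libraries spread around the control libraries. RT1-DMb averaged 0.409 ± 0.0638 CPM with LPS, 1.65 ± 0.264 CPM with IL-1β and 1.61 ± 0.117 CPM in control (SD, n = 4 each). It fell by 1.97 on the log2 scale with LPS relative to control (SE 0.21, adjusted p = 1.06e-08). It was lower with LPS than with IL-1β by -1.99 ± 0.21 (adjusted p = 1.01e-07), which is 3.97-fold. IL-1β over control was 0.02 ± 0.16 (adjusted p = 0.960), with a 95% interval of -0.32 to 0.35. The RT1-DMb calls held under every alternative that tested the gene.

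The chains of DM are made as a pair, and their counts were set against each other after their values were seen. The ratio of RT1-DMb to RT1-DMa counts was 0.25, 0.153, 0.268 and 0.265 with LPS, 0.645, 0.672, 0.437 and 0.681 with IL-1β, and 0.412, 0.373, 0.608 and 0.551 in control. Every LPS library had a lower ratio than every IL-1β and control library, and IL-1β and control overlapped. Both chains have a row of nearly the same values elsewhere in the table: LOC100909593 equalled RT1-DMa in 10 of 12 libraries and differed by at most 1 count, and LOC100909630 equalled RT1-DMb in 7 of 12 and differed by at most 4. How reads shared with such rows were counted is not given in the sources used here, so the levels of both DM genes are uncertain. With each such row added to its partner, the LPS calls of both were kept and RT1-DMa was called in IL-1β as well (-0.34, adjusted p = 0.0389).

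Ciita, the coactivator of the other 7 genes, had 6, 21, 13 and 10 counts with LPS, 10, 7, 10 and 6 with IL-1β, and 16, 8, 6 and 21 in control. The 3 groups overlapped, with the highest library of all in the LPS group and the next highest in control. Ciita averaged 0.453 ± 0.222 CPM with LPS, 0.326 ± 0.0597 CPM with IL-1β and 0.451 ± 0.187 CPM in control (SD, n = 4 each). The log2 fold change was -0.05 ± 0.34 for LPS over control (adjusted p = 0.925) and -0.51 ± 0.37 for IL-1β over control (adjusted p = 0.270). Their 95% intervals, -0.74 to 0.64 and -1.27 to 0.25, include 0 and also falls of the size seen in Cd74. LPS over IL-1β was 0.46 ± 0.37 (adjusted p = 0.420).

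**Figure D3:**
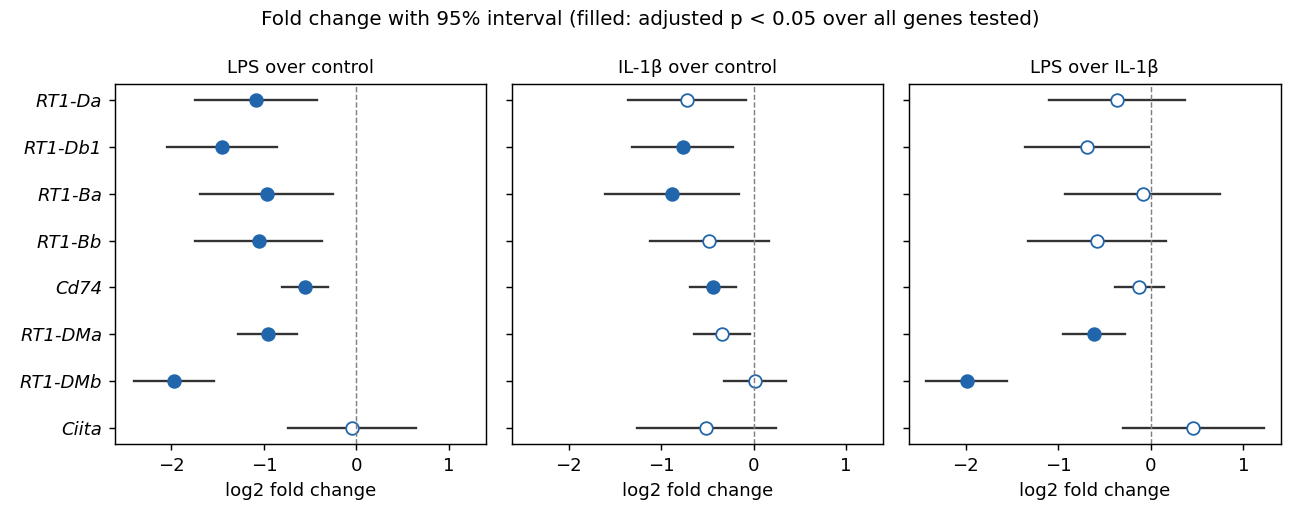
Log2 fold change of each member with its 95% interval for LPS over control, IL-1β over control and LPS over IL-1β, filled where the adjusted p over all rows tested was under 0.05. The LPS panel has 7 filled points, all below 0, the IL-1β panel has 3, and the panel between treatments has RT1-DMa and RT1-DMb filled.

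Ordered from low to high group mean, LPS came below IL-1β and IL-1β below control for RT1-Da, RT1-Db1, RT1-Ba, RT1-Bb, Cd74 and RT1-DMa. Of the steps between neighbours in that order, LPS and IL-1β differed by the test only for RT1-DMa, and IL-1β and control only for RT1-Db1, RT1-Ba and Cd74. For RT1-DMb the order was LPS, control, IL-1β, and the upper step did not pass the test. For Ciita it was IL-1β, control, LPS, and neither step passed.

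To see whether members moved by different amounts within the same libraries, the log2 ratio of each member to Cd74 was compared between groups by exact permutation tests. There were 21 such comparisons of 4 libraries against 4, two-sided, over 70 arrangements, which cannot give a p below 0.0286. After adjustment a ratio could pass only if many of the 21 had that smallest p together. Failure to pass therefore does not show that members moved by equal amounts. None of the 21 passed after Benjamini-Hochberg adjustment, and 4 had the smallest p the exact test allows (p = 0.0286, adjusted p = 0.15). These were RT1-DMb with LPS against control (-1.37), RT1-Db1 with LPS against control (-0.94), RT1-DMb with IL-1β against control (0.45) and RT1-DMb with LPS against IL-1β (-1.82). The RT1-DMb ratio to Cd74 averaged -3.08 ± 0.464 with LPS, -1.25 ± 0.193 with IL-1β and -1.70 ± 0.162 in control on the log2 scale (SD, n = 4 each). The ratio of Ciita to Cd74 was 0.53 higher with LPS than in control (exact permutation p = 0.257, adjusted p = 0.60).

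Within groups, the members were compared from library to library. Over the 28 pairs of members, the correlation of deviations from the group means across the 12 libraries had a median of 0.01 and ranged from -0.62 to 0.51, with 15 above 0. The highest was that of Cd74 with Ciita. Counting error at the members' low counts weakens such correlations, so the median does not show that members varied apart. The genes outside the list with the highest such correlation with Cd74 were Cipc (0.92), Gpsm2 (0.90), Crls1 (0.90), Spa17 (0.90) and Meaf6 (0.90), out of 11536 candidates over the same 12 libraries. With the group means left in, their correlations with Cd74 were 0.48, 0.74, -0.22, 0.01 and -0.34 in the same order. The 5 are the top of 11536 candidates, and whether such values arise by chance was not tested. These values are descriptions, and the deviations share the libraries' depth and scaling.

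The remaining genes of the class II route were read from lists. Each list count stands against the shares of all rows tested. These were 22.5% higher and 20.0% lower with LPS, and 24.7% higher and 23.0% lower with IL-1β. The class II chains RT1-DOa, RT1-DOb, RT1-Db2 and RT1-Ha had 0 to 7 counts in any library and were not tested. Of 7 factors that bind class II promoters, 3 were higher with LPS and none lower, and 5 were higher with IL-1β and none lower. Rfx5, the RFX subunit that binds the X box, averaged 80.2 ± 2.58 CPM with LPS, 76.4 ± 2.33 CPM with IL-1β and 62.4 ± 1.93 CPM in control (SD, n = 4 each). Its log2 fold change was 0.36 ± 0.03 with LPS (adjusted p = 1.22e-09) and 0.29 ± 0.04 with IL-1β (adjusted p = 6.91e-08). Creb1 rose by 0.20 and 0.16 and the NF-Y subunit Nfya by 0.13 and 0.11 on the log2 scale with LPS and with IL-1β, the last of these lost without Control replicate 4 (0.09, adjusted p = 0.0601). The RFX subunit Rfxank was called higher with IL-1β (0.24 ± 0.08, adjusted p = 0.0188), which was lost without Control replicate 1 (0.21, adjusted p = 0.0553), Control replicate 2 (0.22, adjusted p = 0.0501) or IL-1β replicate 4 (0.18, adjusted p = 0.0955). The RFX subunit Rfxap was called higher with IL-1β (0.18 ± 0.06, adjusted p = 0.0242), which was lost without Control replicate 1 (0.16, adjusted p = 0.0768), Control replicate 2 (0.14, adjusted p = 0.104), IL-1β replicate 3 (0.17, adjusted p = 0.0595) or IL-1β replicate 4 (0.17, adjusted p = 0.0507). With LPS they gave 0.00 and 0.08 and neither was called. The NF-Y subunits Nfyb and Nfyc passed in neither treatment, but Nfyb was called higher with LPS without LPS replicate 3 (0.13, adjusted p = 0.0490) and without LPS replicates 3 and 4 (0.17, adjusted p = 0.0211), which made 4 factors higher.

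Of 8 tested genes counted here from the interferon-γ route to Ciita, 6 were called higher with LPS and 5 with IL-1β, and since the list is not reported whole these counts do not describe the direction of the route. Jak2, the kinase of the interferon-γ receptor, averaged 191 ± 3.59 CPM with LPS, 163 ± 6.85 CPM with IL-1β and 52.6 ± 2.04 CPM in control (SD, n = 4 each). It rose by 1.86 on the log2 scale with LPS and by 1.63 with IL-1β. The receptor chains Ifngr1 (0.49 and 0.24) and Ifngr2 (0.59 and 0.36) rose with LPS and with IL-1β. Irf1, an activator of Ciita, rose with LPS (0.35 ± 0.05, adjusted p = 5.73e-06) and gave 0.11 ± 0.05 with IL-1β (adjusted p = 0.0783), which passed without Control replicate 4 (0.14, adjusted p = 0.0331) or IL-1β replicate 4 (0.14, adjusted p = 0.0390). Irf2 was called higher with LPS (0.24) and not with IL-1β (0.10, adjusted p = 0.0559), where it passed under 3 of 23 alternatives. Usf1 was called higher with LPS (0.10) and with IL-1β (0.15), and its LPS call was lost under 5 of 23. Socs1 was called higher with IL-1β (0.55, adjusted p = 0.0237), which was lost under 3 of 22, and not with LPS (0.31). Jak1 passed in neither treatment. Ifng itself, the ligand, had 1 count over the LPS libraries, 2 over the IL-1β libraries and 1 over the control libraries.

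Of 9 tested genes of endosomal processing, 6 were lower and 2 higher with LPS, and the same counts held with IL-1β. Of all rows, 20.0% were lower and 22.5% higher with LPS, and 23.0% lower and 24.7% higher with IL-1β. Without LPS replicates 3 and 4, 6 were lower and 1 higher with LPS. Ctss, cathepsin S, which trims the invariant chain, averaged 3.39 ± 0.413 CPM with LPS, 5.04 ± 0.534 CPM with IL-1β and 8.26 ± 0.203 CPM in control (SD, n = 4 each). It fell by 1.28 on the log2 scale with LPS and by 0.71 with IL-1β, and was lower with LPS than with IL-1β (-0.58 ± 0.11, adjusted p = 2.46e-04). The protease Lgmn (-0.48 and -0.33), the protease Ctsd (-0.31 and -0.22) and the cathepsin inhibitor Cst3 (-0.46 and -0.66) were lower with LPS and with IL-1β.

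The ubiquitin ligase March1, which sends class II to degradation, was lower with LPS (-0.81 ± 0.20, adjusted p = 0.00185) and with IL-1β (-0.57 ± 0.20, adjusted p = 0.0206). The IL-1β call of March1 was lost with DESeq2 (-0.57, adjusted p = 0.0686) and without Control replicate 1 (-0.54, adjusted p = 0.0505), Control replicate 4 (-0.48, adjusted p = 0.0821) or IL-1β replicate 3 (-0.53, adjusted p = 0.0532). Its relative March8 was higher in both (0.24 and 0.25). Of 6 tested costimulation genes, 3 were lower and 2 higher with LPS, and 3 lower and 1 higher with IL-1β. The shares of all rows were 20.0% lower and 22.5% higher with LPS, and 23.0% lower and 24.7% higher with IL-1β. Cd83 (-1.06 and -0.89) and Cd86 (-1.42 and -1.40) were lower with LPS and with IL-1β. Cd86 had 3 to 9 counts with LPS, 5 to 7 with IL-1β and 8 to 27 in control. It passed the filter on low counts only through control, so its calls, counted above, are no independent support. Cd40 was lower in IL-1β (-1.08 ± 0.20, adjusted p = 4.52e-05) and in LPS (-0.56 ± 0.18, adjusted p = 0.0131). The LPS call of Cd40 was lost without Control replicate 4 (-0.48, adjusted p = 0.0591), LPS replicate 4 (-0.39, adjusted p = 0.0779) or LPS replicates 3 and 4 together (-0.39, adjusted p = 0.126), which left 2 lower and 2 higher. Icoslg was higher in both (0.26 and 0.39).

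Genes with other roles that are assigned to the class II region were also read as a list. Tap1, Tap2, Psmb8, Psmb9 and Brd2 lie in the stretch of chromosome 20 from RT1-Da to RT1-Ha. The other listed genes were not found in that stretch, and their positions were not checked. Of 10 such genes tested, 3 were higher and 1 lower with LPS, and 2 higher and 5 lower with IL-1β (3 and 5 without LPS replicates 3 and 4). Of all rows, 22.5% were higher and 20.0% lower with LPS, and 24.7% higher and 23.0% lower with IL-1β. The counts of higher genes in this list lie near those shares. Tap1 of the peptide transporter gave -0.02 ± 0.06 with LPS (adjusted p = 0.809) and fell by 0.38 with IL-1β (SE 0.06, adjusted p = 5.45e-05). Psmb8 gave -0.04 ± 0.04 with LPS (adjusted p = 0.498) and fell by 0.35 with IL-1β (SE 0.04, adjusted p = 9.08e-08). Between the treatments, Tap1 (0.36) and Psmb8 (0.31) were higher with LPS than with IL-1β, whereas RT1-DMa and RT1-DMb, in the same stretch from RT1-Da to RT1-Ha, were lower. Btnl2 had no count in the LPS libraries, 3 in the IL-1β libraries and 1 in the control libraries.

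**Figure D4:**
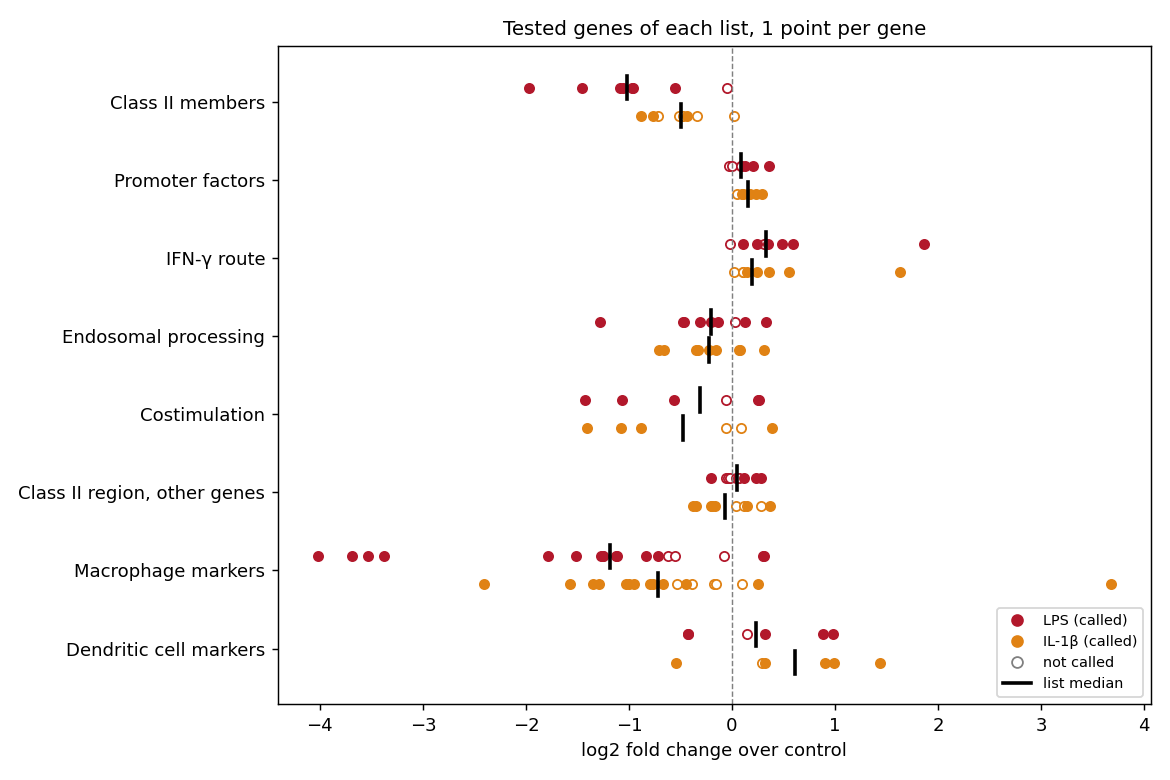
Log2 fold change over control of each tested gene in 8 lists, with LPS above IL-1β in each row, filled points called at an adjusted p under 0.05 and a bar at the list median. The class II median is -1.01 with LPS and -0.49 with IL-1β, and that of the macrophage markers is -1.18 with LPS and -0.72 with IL-1β.

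Macrophage markers were lower more often than higher in both treatments. Of 18 tested macrophage markers, 13 were lower and 2 higher with LPS, and 11 lower and 2 higher with IL-1β. The shares of all rows were 20.0% lower and 22.5% higher with LPS, and 23.0% lower and 24.7% higher with IL-1β. Their summed level, over all 20 listed, was 112 to 120.0 CPM with LPS, 122.6 to 132.6 CPM with IL-1β and 177 to 190.2 CPM in control. Between LPS and IL-1β, 10 of the 18 were lower with LPS and 1 was higher, against 10.6% and 11.3% of all rows. Cd163 is counted as higher with IL-1β than in control and as lower with LPS than with IL-1β. It had 15 to 28 counts with IL-1β, 0 to 2 with LPS and 0 to 3 in control. It passed the filter on low counts only through IL-1β, so these calls are no independent support. Lysozyme Lyz2 averaged 7.97 ± 0.629 CPM with LPS, 13.4 ± 0.311 CPM with IL-1β and 27.4 ± 1.47 CPM in control (SD, n = 4 each). The complement gene C1qa averaged 0.605 ± 0.161 CPM with LPS, 3.54 ± 0.215 CPM with IL-1β and 7.06 ± 0.399 CPM in control. Siglec1 was lower in both (-3.37 and -2.40). Emr1, the table's name for Adgre1, was higher with LPS (0.31 ± 0.06, adjusted p = 1.78e-04) and lower with IL-1β (-1.57 ± 0.08, adjusted p = 5.47e-16). Marco had no count with LPS, 1 with IL-1β and 5 in control. The part of macrophage RNA in the class II result was not tested.

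Of 6 tested dendritic cell markers, 2 were lower and 3 higher with LPS, and 1 lower and 4 higher with IL-1β, with a summed level over all 11 listed of 34.1 to 36.8 CPM with LPS, 34.4 to 38.2 CPM with IL-1β and 39.8 to 43.8 CPM in control. Zbtb46 carries that order: the other 10 summed to 12 to 12.7 CPM with LPS, 13.3 to 15.2 CPM with IL-1β and 9.45 to 10.7 CPM in control, higher in both treatments. Without LPS replicates 3 and 4, 1 marker was lower and 2 were higher with LPS. With all libraries, 20.0% of all rows were lower and 22.5% higher with LPS, and 23.0% lower and 24.7% higher with IL-1β. The B cell and the T and NK cell counts below stand against the same shares. Zbtb46 was lower (-0.43 and -0.54) and Clec9a higher (0.88 and 0.90) in both treatments. Of 3 tested B cell markers, Cd79a was lower (-0.80 and -0.68) and neither of the others passed in either treatment. The 8 listed B cell markers summed to 4.55 to 5.46 CPM with LPS, 5.12 to 6.05 CPM with IL-1β and 6.88 to 8.99 CPM in control, with Cd79b at 0 in the LPS libraries and Pax5 at 0 in the control libraries. That sum was mostly Cd79a, which averaged 3.56 CPM with LPS, 3.89 CPM with IL-1β and 6.18 CPM in control. The sum therefore does not speak for the other B cell markers. Of 5 tested T and NK cell markers, 1 was lower with LPS, and 1 was lower and 1 higher with IL-1β. Cd4, which macrophages of the rat also make, was lower in both (-1.27 and -1.47). The summed T and NK cell level was 8.30 to 9.59 CPM with LPS, 7.60 to 8.92 CPM with IL-1β and 15.3 to 17.1 CPM in control. Without Cd4 the other 8 summed to 3.00 to 4.76 CPM with LPS, 3.53 to 4.49 CPM with IL-1β and 3.66 to 4.44 CPM in control, and the groups overlapped. The part of these cells in the class II result was not tested.

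Markers of the other cells of the ovary went in both directions. Of all rows, 22.5% were higher and 20.0% lower with LPS, and 24.7% higher and 23.0% lower with IL-1β. The counts of higher epithelial markers lie near those shares. Of 8 theca markers, 6 were higher and 1 lower with LPS, and 7 higher and 1 lower with IL-1β. Of 8 stromal markers, 3 were higher and 5 lower in each treatment. Of 10 endothelial markers, 8 were higher and 1 lower with LPS, and 9 higher and 1 lower with IL-1β. Of 7 granulosa markers, 3 were higher and 1 lower with LPS, and 5 higher and 1 lower with IL-1β. Of 8 epithelial markers, 2 were higher and 3 lower in each treatment (2 and 2 with LPS without LPS replicates 3 and 4).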

How the data were processed

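Whole-number read counts per gene symbol for 12 libraries were deposited by the authors with no normalization. The submitters' processing notes name the build Rnor_6.0 and the tools DESeq2, SAMtools and TopHat2 2.1.1. The counting program, its strand setting, the annotation and the treatment of reads shared between copies are not given in the sources used here. Libraries were made with a stranded mRNA kit, per the labels' protocols. Sprague Dawley rats are outbred and class II chains are polymorphic, and the effect of mismatches to the reference on their counts was not tested.

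The counts were tested in R 4.3.3 with edgeR 4.0.16: filterByExpr (10 counts, 4 libraries), TMM scaling and a robust quasi-likelihood fit of 3 groups to all 12 libraries, with two-sided F-tests and Benjamini-Hochberg adjustment over 17330 rows. A call is an adjusted p under 0.05. The SE is the absolute log2 fold change over the square root of F, and fitted fold changes of low genes depend on a small prior count. Ratios to Cd74 added 0.5 counts to both genes and were compared by exact permutation tests. Poisson intervals cover counting error only. Alternatives used DESeq2 1.42.0, limma 3.58.1, other scalings and filters, 8-library fits, a replicate block, near-identical rows summed (r 0.99 or higher, mean log2 levels no more than 0.15 apart), and each library left out.

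Members and the 16 other lists were chosen with earlier results of these data known. All members are named, and of each other list up to 4 genes with the smallest p plus any at 0, while the promoter factors, the interferon-γ route and the other class II chains may be named in full. Cd163 is named as well, for how it passed the filter. Adgre1 was read as Emr1 and Hsd3b2 as Hsd3b6, and RT1-Hb was not analysed here. A further gene of the interferon-γ route is not reported here and is left out of that list's counts. Likeness to Cd74 was ranked among genes of at least 2 CPM. Promoter sequences are from RefSeq (GRCr8), and the letters searched and their spacing were chosen after the sequences were seen.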

Additional observations from a re-analysis of the deposited data

Results flagged for a closer look

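RT1-Db1 in Control replicate 2 lay apart from the other control libraries at 0.976 CPM, with the other 3 between 1.07 and 1.09 CPM. It was flagged because its gap to the nearest library took most of the range of the group. It was the sole flag among 24 combinations of member and group. The rule uses a 95% critical value, so some flags arise by chance. All 4 control libraries still lay above all LPS and IL-1β libraries. The RT1-Db1 calls in both treatments held without that library.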

How the results depend on the processing

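The main counts of members called were 7 for LPS over control, 3 for IL-1β over control and 2 for LPS over IL-1β, all lower. For IL-1β over control the count was 5 with no filter on low counts and 5 without LPS replicates 3 and 4, a setting added after the data were seen. With no filter 4085 of 28620 rows were called lower in that comparison, and without LPS replicates 3 and 4 it was 23.6% of rows. With a filter of at least 2 CPM on average, only Cd74 and RT1-DMa were tested, and 2, 1 and 1 were called for the 3 comparisons. With single libraries left out the counts ran from 5 to 7, from 2 to 5 (5 without Control replicate 3) and from 2 to 3. No member was called higher in any setting. Of 531 recomputed member fold changes, 500 stayed on their side of the threshold, 16 lost the call, 15 gained it and none called changed direction. Samples with the same replicate number had correlations of deviations of -0.03 to 0.12, and 9 of 12 samples correlated best with their own number. These values do not settle whether replicate numbers pair the samples, and the main fit left them unpaired. The replicate block gave 7, 4 and 2 calls, the added call being RT1-Da with IL-1β (-0.68, adjusted p = 0.0121). Scaling by library size alone moved the share of higher calls over all rows to 63.4% from 53.0% for LPS and to 64.1% from 51.7% for IL-1β. The Cd74 ratios passed in none of the settings. With all libraries or with a library left out, a ratio could pass only if many ratios had the smallest p together. These settings therefore say nothing about stability. Depth limits RT1-Ba, RT1-Bb and Ciita most.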
